A study of Arabidopsis thaliana with 208 samples.

Results

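LBD37 (AT5G67420), LBD38 (AT3G49940) and LBD39 (AT4G37540) are related genes for LATERAL ORGAN BOUNDARIES DOMAIN proteins, taken here by their locus tags: 3 members of the 33602 loci in the count files, all of which passed the low-count filter that left 19664 nuclear genes to test. Their transcripts were counted in roots of Arabidopsis seedlings 9 days old. The plants carried 1 of 12 T-DNA insertions, in SALK_146141, SALK_100002, SALK_094437C, SALK_085964C, SALK_070847C, SALK_035980, SALK_015182, SALK_012253, SAIL_1207_H04, GABI_868_E02, GABI_699B09 or GABI_513E07, or were the wild type Col, and each line was grown on 10 mM and on 1 mM KNO3 with 4 replicates per group. The labels name the lines and not the disrupted genes, and do not say that any line carries an insertion in LBD37, LBD38 or LBD39. A replicate combined the seedlings of 2 plates. Every medium also held 10 mM KCl and 1% sucrose. Nitrate was given as its potassium salt, so potassium changed with it and the effects of the ions cannot be told apart.

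LBD proteins are plant transcription factors that bind DNA through a conserved block of cysteines. LBD37, LBD38 and LBD39 belong to class II of the family, are switched on by nitrate, and are known as repressors of nitrogen-responsive genes, among them genes of nitrate uptake and reduction, and of the regulators that turn on anthocyanin synthesis. They therefore form a negative branch of the nitrate response, beside the NLP transcription factors that activate it. In bulk roots, fewer cells of a type that expresses a gene and less of its RNA per cell cannot be told apart.

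In the TAIR10.1 assembly LBD37 lies on the minus strand at chr5:26903866-26906524, LBD38 on the plus strand at chr3:18514266-18516131 and LBD39 on the minus strand at chr4:17639393-17640925. The longest annotated transcript of each has 2 exons, and no other annotated locus overlaps any of the 3 genes. LBD37 codes for 250 residues, LBD38 for 247 and LBD39 for 240. LBD37 and LBD38 were the closest pair, with 81% identical residues, against 63.3% between LBD37 and LBD39 and 65.9% between LBD38 and LBD39. All share the cysteine block, 4 cysteines at residues 3 to 17. The coding stretches of that block are shown because this block defines the family. Each is written 5′ to 3′ from the RefSeq TAIR10.1 sequence with the 4 cysteine codons in capitals, at chr5:26905365-26905409 (minus strand), chr3:18514471-18514515 (plus strand) and chr4:17640459-17640503 (minus strand).
LBD37: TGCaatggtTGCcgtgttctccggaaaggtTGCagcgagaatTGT
LBD38: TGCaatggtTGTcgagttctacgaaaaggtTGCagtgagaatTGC
LBD39: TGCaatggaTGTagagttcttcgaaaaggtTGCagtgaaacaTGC

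The longest run of bases shared by 2 of the transcripts was 35, between LBD37 and LBD39, and it was 32 between LBD37 and LBD38 and 29 between LBD38 and LBD39. After the stop codon, near the 3′ ends where tags of this method fall, the longest shared runs were 11, 13 and 9 bases in the same order of pairs. The strand setting and the multiple-match rule of the counting are not given in the sources used here.

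The 250 bases before the annotated start of each gene are shown because all 3 genes moved in the same direction with nitrate. LBD37 has 2 annotated transcripts, and its window lies before the outer boundary of the gene. They lie at chr5:26906525-26906774 (minus strand), chr3:18514016-18514265 (plus strand) and chr4:17640926-17641175 (minus strand) of TAIR10.1, and are written 5′ to 3′ along the gene, with matches to the motifs searched in capitals.
LBD37: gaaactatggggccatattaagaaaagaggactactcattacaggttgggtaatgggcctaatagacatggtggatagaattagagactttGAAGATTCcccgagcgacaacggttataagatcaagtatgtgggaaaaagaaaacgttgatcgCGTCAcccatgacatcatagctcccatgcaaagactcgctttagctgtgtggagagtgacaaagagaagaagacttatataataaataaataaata
LBD38: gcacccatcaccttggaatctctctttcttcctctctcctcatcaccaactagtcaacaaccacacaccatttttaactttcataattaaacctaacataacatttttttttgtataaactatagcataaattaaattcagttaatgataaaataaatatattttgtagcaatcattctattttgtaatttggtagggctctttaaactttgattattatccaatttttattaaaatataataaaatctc
LBD39: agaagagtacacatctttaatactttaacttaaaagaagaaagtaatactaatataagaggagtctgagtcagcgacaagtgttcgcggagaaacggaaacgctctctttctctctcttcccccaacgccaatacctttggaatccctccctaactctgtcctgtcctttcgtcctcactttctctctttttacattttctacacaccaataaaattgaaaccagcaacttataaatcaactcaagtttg

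The motifs searched, on both strands, were CTT and AAG separated by 10 bases (the core of a nitrate-responsive element), GAATNTTC (a motif bound by HRS1 and HHO repressors), TGACG (the core bound by TGA factors) and GCGGCG (a core bound by LBD proteins). LBD37 held 1 GAATNTTC match on the minus strand, GAAGATTC, and 1 TGACG match on the minus strand, which reads CGTCA. LBD38 and LBD39 held no match to any of the 4 motifs. Of 27443 windows of the same length, 8.02% held the spaced CTT and AAG, 5.34% GAATNTTC, 18.6% TGACG and 1.56% GCGGCG. These windows are short, and letters absent from them may lie elsewhere.

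All 3 genes were higher at 10 mM than at 1 mM KNO3 over the 13 lines, and the size of the change differed widely among them: LBD39 rose 4.7-fold, LBD38 2.29-fold and LBD37 1.33-fold. Levels are CPM, a gene's counts relative to the total of its library corrected by a TMM factor and not by length, so levels are compared within a gene and only changes are compared between genes. Changes were tested by edgeR's quasi-likelihood test with Benjamini-Hochberg adjustment over the 19664 genes tested, and a gene with an adjusted p under 0.05 is said to be called.

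LBD39 ranged between 48.2 and 101 CPM at 10 mM (median 74.7, mean 73.5 ± 13, SD, n = 52), against 6.59 to 24.5 CPM at 1 mM (median 15.7, mean 15.8 ± 4.32, n = 52). Every 10 mM library was above every 1 mM library, with no overlap. Such a separation held for 0.605% of the genes tested. The log2 change was 2.23 ± 0.06 (SE, edgeR adjusted p of 2.31e-52), the 57th largest rise among the genes tested.

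LBD38 lay between 50.1 and 92.1 CPM at 10 mM (median 71.1, mean 70.1 ± 10.1, SD, n = 52), against 18.5 to 51.2 CPM at 1 mM (median 31.5, mean 30.9 ± 6.68, n = 52). The groups overlapped in a single 1 mM library, replicate 1 of SALK_070847C, which lay above 2 of the 52 libraries at 10 mM. The log2 change was 1.19 ± 0.04 (SE, edgeR adjusted p of 4.74e-42), the 288th largest rise.

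LBD37 lay between 58.8 and 100 CPM at 10 mM (median 78.7, mean 78.5 ± 8.05, SD, n = 52), against 33.8 to 73.5 CPM at 1 mM (median 59.2, mean 59.1 ± 7.11, n = 52). The groups overlapped: 39 of the 52 libraries at 10 mM were above the highest 1 mM library. The log2 change was 0.41 ± 0.03 (SE, edgeR adjusted p of 7.32e-20), the 2016th largest rise. Over all genes tested, 34.1% were called higher at 10 mM and 64.5% were called in either direction, and the median log2 change was 0.0177. A call alone therefore sets the members little apart, while 0.29% of the genes had a rise at least as large as that of LBD39 and 1.46% one at least as large as that of LBD38, falls not counted.

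**Figure D1:**
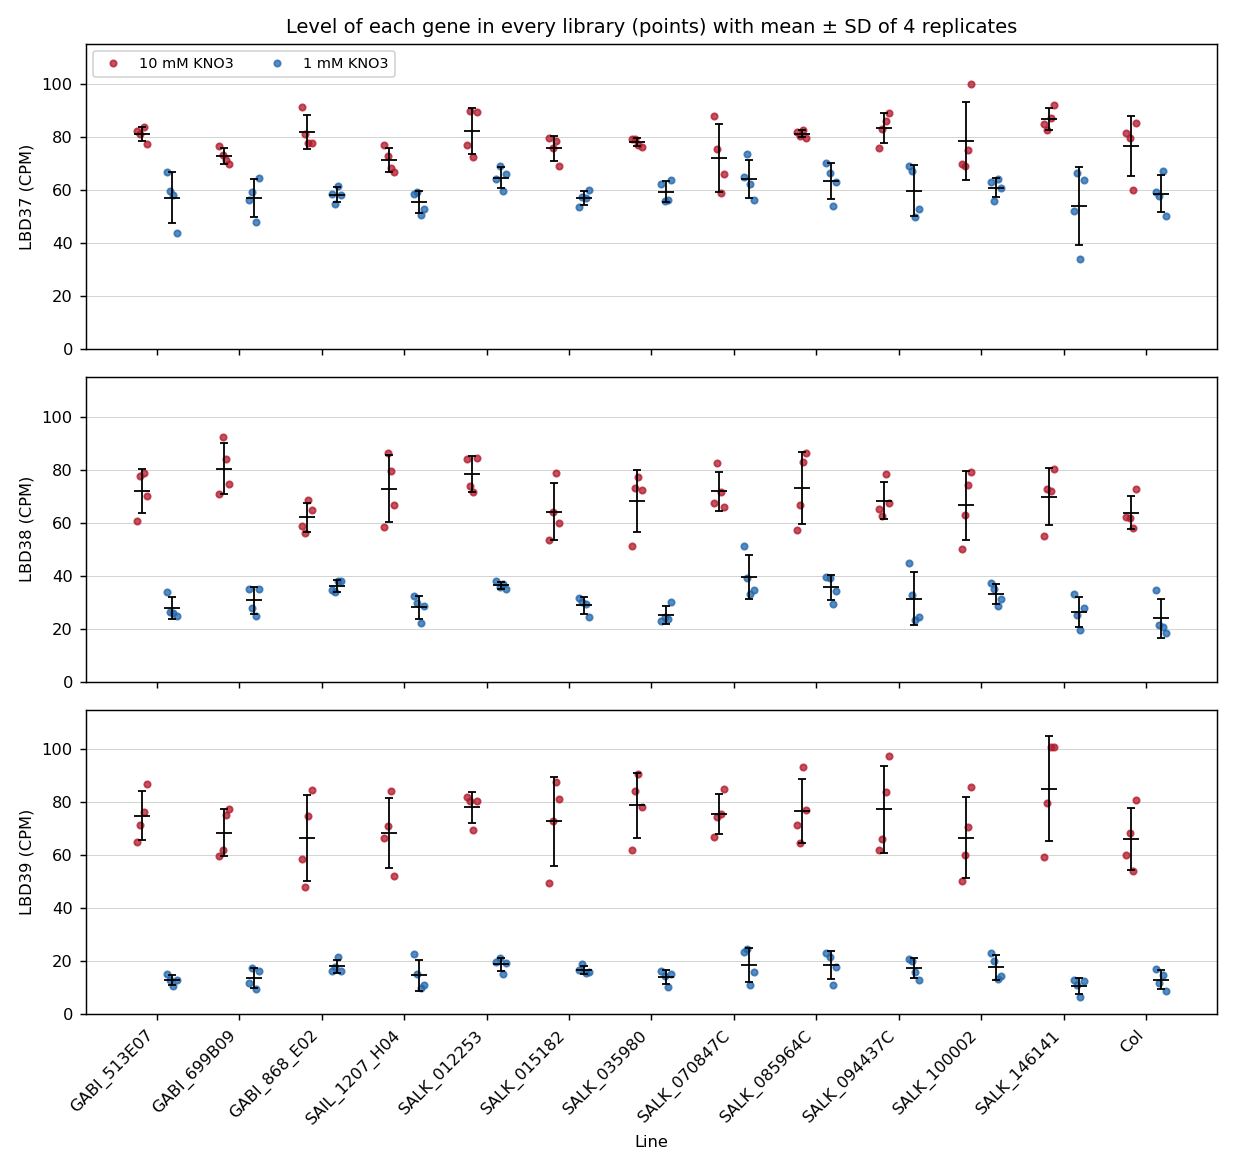
CPM of LBD37, LBD38 and LBD39 in every library (points), with the mean and SD of 4 replicates (black), for the 12 insertion lines and Col on the x axis, at 10 mM (red, left) and 1 mM KNO3 (blue, right). The LBD39 libraries at 10 mM (48.2 to 101 CPM) lie clear of those at 1 mM (6.59 to 24.5 CPM), while the LBD37 libraries of the concentrations overlap.

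The sample titles also carry a number after the letters str, which the labels do not define. Of its 13 values 5 went with 10 mM libraries alone, 5 with 1 mM libraries alone and 3 with both, so the concentrations were compared again within these 3 mixed str numbers, with 12 libraries at each concentration. There the log2 changes were 2.04 for LBD39, 1.09 for LBD38 and 0.36 for LBD37 (edgeR adjusted p of 8.55e-14, 8.97e-09 and 0.00234, in a fit of those libraries alone). With the str number as a term in the fit of all libraries they were 2.09, 1.18 and 0.38. The 24 libraries are among those of the comparison above. Within each of the 3 mixed str numbers no line was present at both concentrations, and the replicate numbers differed too. The fit of those libraries alone held only the str number and the concentration. Differences of line or replicate number can therefore not be told apart from the concentration within a str number. In str number 7, which held 4 libraries of each concentration, LBD39 averaged 67 ± 14.9 CPM at 10 mM and 12.5 ± 4.03 CPM at 1 mM (SD, n = 4 each), a ratio of 5.36. The ratio was 3.07 in str number 4, with 6 libraries at 10 mM and 2 at 1 mM, and 4.16 in str number 10, with 2 and 6.

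The changes of the members also differed from each other in the same libraries. Per library, the log2 ratio of the LBD39 count to the LBD37 count averaged -0.11 ± 0.26 at 10 mM and -1.94 ± 0.32 at 1 mM (SD, n = 52 each), a change of 1.83. The ratio of LBD39 to LBD38 changed by 1.05, and that of LBD38 to LBD37 by 0.78. Each of these 3 changes was positive in all 13 lines, and each had an adjusted p of 1e-05, the smallest that 100000 permutations can give (two-sided permutation test of the concentrations over libraries, adjusted over 3 pairs). A ratio of counts carries the lengths and tag yields of both genes, so its change is read and not its level. The change in the LBD39 to LBD37 ratio ranged between 1.36 in GABI_868_E02 and 2.26 in SALK_146141. For LBD39 to LBD38 the range was 0.9 in Col to 1.57 in SALK_146141, and for LBD38 to LBD37 it was 0.29 in GABI_868_E02 to 1.08 in Col.

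The nitrate change was then measured within each line. LBD39 and LBD38 were called higher at 10 mM in all 13 lines and LBD37 in 12 of 13, and in every line LBD39 had the largest log2 change and LBD37 the smallest. The share of all genes tested that were called higher was 8.61% in GABI_513E07, 7.67% in GABI_699B09, 8.86% in GABI_868_E02, 9.93% in SAIL_1207_H04, 6.24% in SALK_012253 and 8.84% in SALK_015182. It was 7.73% in SALK_035980, 6.21% in SALK_070847C, 7.25% in SALK_085964C, 8.06% in SALK_094437C, 9.03% in SALK_100002, 10.8% in SALK_146141 and 11.7% in Col. In 1.35% of the genes tested the 10 mM libraries were above the 1 mM libraries without overlap in each of the 13 lines, and LBD38 and LBD39 were among these genes.

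In Col, LBD39 had 60.2, 68.6, 54.1 and 81 CPM at 10 mM, against 17.1, 11.7, 14.7 and 8.77 CPM at 1 mM (log2 change 2.35 ± 0.22 SE, edgeR adjusted p of 8.48e-15). In SALK_146141 it had 59.4, 79.8, 101 and 101 CPM at 10 mM, against 12.8, 11, 6.59 and 12.6 CPM at 1 mM, the widest change of the 13 lines (2.95 ± 0.23). In GABI_868_E02 it had 58.5, 48.2, 74.7 and 84.7 CPM at 10 mM, against 16.4, 17.7, 21.7 and 16.4 CPM at 1 mM, the smallest change (1.88 ± 0.22). The concentrations did not overlap in any line for this gene, and the SE of the change in a line was between 0.217 and 0.23.

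At 10 mM the highest mean LBD39 level was that of SALK_146141 (85.2 ± 19.9), with SALK_035980 (78.8 ± 12.3), SALK_012253 (78.1 ± 5.79) and SALK_094437C (77.4 ± 16.4) next in the order. The middle of the order held SALK_085964C (76.7 ± 12.1), SALK_070847C (75.6 ± 7.39), GABI_513E07 (75 ± 9.18), SALK_015182 (72.8 ± 16.7) and GABI_699B09 (68.6 ± 8.96). It ended with SAIL_1207_H04 (68.4 ± 13.2), SALK_100002 (66.7 ± 15.3), GABI_868_E02 (66.5 ± 16.3) and Col (66 ± 11.7). Values are CPM, mean ± SD of 4 libraries. The gap between neighbours in the order was smaller than the larger of their SDs in each of 12 steps. Sorting places like means side by side, and the SD is that of single libraries. Here and in the orders below, such steps therefore do not test whether lines differ.

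At 1 mM the highest mean LBD39 level was that of SALK_012253 (18.9 ± 2.51), with SALK_070847C (18.7 ± 6.42), SALK_085964C (18.5 ± 5.34) and GABI_868_E02 (18.1 ± 2.53) next in the order. The middle of the order held SALK_100002 (17.7 ± 4.69), SALK_094437C (17.5 ± 3.75), SALK_015182 (16.8 ± 1.49), SAIL_1207_H04 (14.7 ± 5.79) and SALK_035980 (14.1 ± 2.7). It ended with GABI_699B09 (13.7 ± 3.8), Col (13.1 ± 3.63), GABI_513E07 (12.9 ± 1.82) and SALK_146141 (10.7 ± 2.88). No step between neighbours exceeded their SD at 1 mM either. Col had the lowest mean of the 13 lines at 10 mM and was above GABI_513E07 and SALK_146141 at 1 mM.

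In Col, LBD38 had 62.1, 61.9, 58.1 and 72.5 CPM at 10 mM, against 34.7, 21.2, 20.7 and 18.5 CPM at 1 mM (log2 change 1.43 ± 0.16 SE, edgeR adjusted p of 1.34e-11). In GABI_868_E02 it had 58.8, 56.1, 68.4 and 64.6 CPM at 10 mM, against 34.5, 33.8, 38 and 37.9 CPM at 1 mM, the smallest change (0.78 ± 0.16, adjusted p of 9.39e-05). In SALK_035980 it had 51, 72.9, 77 and 72.3 CPM at 10 mM, against 22.7, 24.3, 23.5 and 30.1 CPM at 1 mM, the widest change (1.44 ± 0.17). The concentrations did not overlap in any line. GABI_868_E02 combined the lowest mean at 10 mM with the third highest at 1 mM.

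At 10 mM the highest mean LBD38 level was that of GABI_699B09 (80.3 ± 9.64), with SALK_012253 (78.3 ± 6.64), SALK_085964C (73.1 ± 13.7) and SAIL_1207_H04 (72.7 ± 12.6) next in the order. The middle of the order held SALK_070847C (71.8 ± 7.35), GABI_513E07 (71.8 ± 8.28), SALK_146141 (69.8 ± 10.7), SALK_035980 (68.3 ± 11.7) and SALK_094437C (68.2 ± 6.91). It ended with SALK_100002 (66.6 ± 13), SALK_015182 (64.1 ± 10.7), Col (63.7 ± 6.17) and GABI_868_E02 (62 ± 5.54). Again no step between neighbours exceeded the larger SD.

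At 1 mM the highest mean LBD38 level was that of SALK_070847C (39.5 ± 8.24), with SALK_012253 (36.3 ± 1.38), GABI_868_E02 (36 ± 2.22) and SALK_085964C (35.5 ± 4.75) next in the order. The middle of the order held SALK_100002 (33 ± 3.73), SALK_094437C (31.3 ± 9.99), GABI_699B09 (30.6 ± 5.12), SALK_015182 (28.8 ± 3.16) and SAIL_1207_H04 (28.1 ± 4.32). It ended with GABI_513E07 (27.7 ± 4.14), SALK_146141 (26.3 ± 5.65), SALK_035980 (25.1 ± 3.35) and Col (23.8 ± 7.38). Each step was within the SD of the neighbours here too, and Col was the lowest of the 13 lines.

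In Col, LBD37 had 81.4, 79.4, 59.8 and 85.3 CPM at 10 mM, against 59.2, 57.8, 67.1 and 50.1 CPM at 1 mM (log2 change 0.39 ± 0.12 SE, edgeR adjusted p of 0.0102). In SALK_146141 it had 84.9, 82.5, 87.2 and 92.1 CPM at 10 mM, against 51.9, 66.2, 33.8 and 63.8 CPM at 1 mM, the widest change (0.67 ± 0.12). In SALK_070847C it had 88, 75.4, 58.8 and 65.9 CPM at 10 mM, against 64.8, 73.5, 62 and 56.1 CPM at 1 mM, and its change of 0.16 ± 0.12 was not called (adjusted p of 0.442). The concentrations overlapped in Col and in SALK_070847C and in no other line. How many of all genes tested were separated in as many lines was not counted, so nothing is drawn from this. The number of lines called for LBD37 changed with the libraries used: 5 were called without replicate 1, 4 without replicate 2, 10 without replicate 3 and 7 without replicate 4. They were 4 with run 1 alone, 6 with run 2 alone and 7 when each line was fitted from its own 8 libraries.

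At 10 mM the highest mean LBD37 level was that of SALK_146141 (86.7 ± 4.11), with SALK_094437C (83.4 ± 5.7), SALK_012253 (82.1 ± 8.78) and GABI_868_E02 (81.9 ± 6.37) next in the order. The middle of the order held SALK_085964C (81.1 ± 1.33), GABI_513E07 (81 ± 2.75), SALK_100002 (78.5 ± 14.8), SALK_035980 (77.9 ± 1.55) and Col (76.5 ± 11.4). It ended with SALK_015182 (75.7 ± 4.72), GABI_699B09 (72.6 ± 2.99), SALK_070847C (72 ± 12.7) and SAIL_1207_H04 (71.2 ± 4.64). No step between neighbours exceeded the larger SD.

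At 1 mM the highest mean LBD37 level was that of SALK_012253 (64.6 ± 4.03), with SALK_070847C (64.1 ± 7.22), SALK_085964C (63.3 ± 6.88) and SALK_100002 (60.8 ± 3.54) next in the order. The middle of the order held SALK_094437C (59.7 ± 9.71), SALK_035980 (59.3 ± 4.05), Col (58.5 ± 6.95), GABI_868_E02 (58.1 ± 2.77) and GABI_513E07 (57 ± 9.69). It ended with GABI_699B09 (56.9 ± 7.05), SALK_015182 (56.9 ± 2.51), SAIL_1207_H04 (55.3 ± 4.21) and SALK_146141 (53.9 ± 14.8). Here as well every step lay within the SD of the neighbours.

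**Figure D2:**
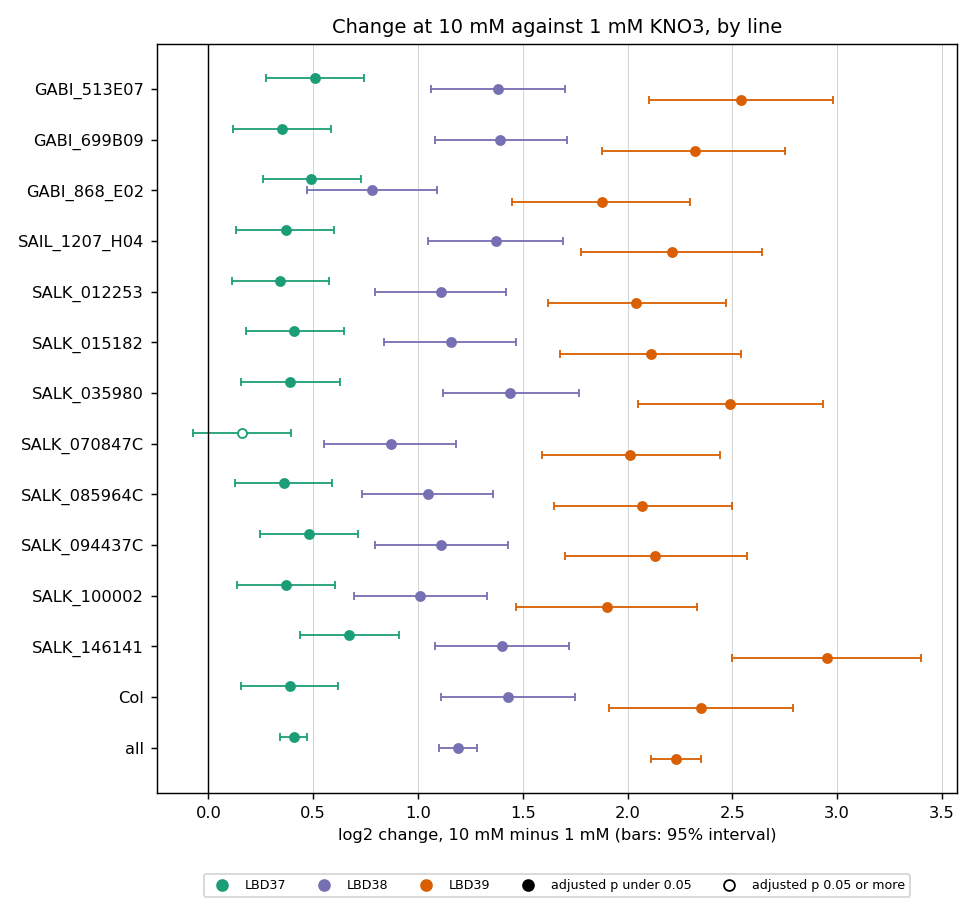
Log2 change at 10 mM against 1 mM KNO3 (x axis) of LBD37, LBD38 and LBD39 in each line and over all 13 lines (y axis), with 95% intervals from the edgeR fit. Filled points have an adjusted p under 0.05. LBD39 lies to the right of LBD38 and LBD38 to the right of LBD37 in every line, and the LBD37 change in SALK_070847C is the single open point.

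Whether the change with nitrate differed among lines was tested directly. Over the 13 lines no difference in response was called for LBD37, LBD38 or LBD39 (edgeR F test of line by concentration, adjusted p of 1 for each, unadjusted p of 0.476, 0.0335 and 0.0499), and 0.0102% of all genes tested were called. With the str number as a term the adjusted p of this F test was 0.725 for LBD37, 0.0683 for LBD38 and 0.111 for LBD39, again not called. Nor was the response of any of the 12 insertion lines called different from that of Col for any member. By unadjusted p under 0.05 there were 2 such differences for LBD38 and none for LBD37 and LBD39, and limma-voom and DESeq2 called none. The smallest p belonged to LBD38 in GABI_868_E02, whose change was smaller than that of Col by a log2 difference of -0.65 ± 0.23 (SE, 95% interval -1.09 to -0.206, unadjusted p of 0.00518, edgeR adjusted p of 0.407). The other was LBD38 in SALK_070847C, with -0.57 ± 0.23 (adjusted p of 1). For LBD39 the differences ranged between -0.47 in GABI_868_E02 and 0.6 in SALK_146141, with SEs between 0.304 and 0.312, and the unadjusted p of the 0.6 in SALK_146141 was 0.0566. Of all genes tested, 0.0102% were called in GABI_699B09, 0.0102% in SALK_015182 and 0.00509% in GABI_868_E02, and 0% in each of the other 9 lines.

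Averaged over the concentrations, LBD38 differed among the 13 lines (edgeR F test, adjusted p of 0.0181), and no such difference was called for LBD37 (adjusted p of 0.723) or LBD39 (0.436). Such differences were called for 10.8% of the genes tested. The LBD38 call was not held by every choice. It was lost without replicate 2 (adjusted p of 0.455), without replicate 3 (0.0881) and without replicate 4 (0.162), and with run 1 alone (0.282) or run 2 alone (0.27). It was also lost among the 12 insertion lines with Col left out (0.126), a test added after the values were seen, in which 9.87% of the genes were called. The LBD38 call was kept without replicate 1 (0.000993), by limma-voom (F test, 0.00988) and by DESeq2 (likelihood ratio test, 0.00483). With the str number as a term its adjusted p was 6.7e-06, and LBD39 was called too (0.00926).

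Against Col, LBD38 was called higher in 3 of 12 insertion lines. SALK_012253 had 83.9, 73.8, 71.5 and 84.2 CPM of LBD38 at 10 mM and 38, 35.5, 36.9 and 34.9 CPM at 1 mM, against the Col values above (log2 difference 0.46 ± 0.11 SE, edgeR adjusted p of 0.0328). SALK_070847C had 67.5, 82.3, 71.5 and 65.9 CPM at 10 mM and 51.2, 39.1, 33 and 34.6 CPM at 1 mM (0.46 ± 0.11, adjusted p of 0.0274). GABI_699B09 had 70.6, 92.1, 84 and 74.6 CPM at 10 mM and 34.8, 27.7, 24.9 and 35.1 CPM at 1 mM (0.36 ± 0.11, adjusted p of 0.0241), a call lost when p-values were adjusted over genes and lines together (0.111), while the other 2 were kept. At 1 mM the libraries of SALK_012253 all lay above the 4 of Col, while those of GABI_699B09 and SALK_070847C overlapped with Col replicate 1, and at 10 mM each of the 3 lines overlapped with Col. Without replicate 2, 3 or 4, and with either run alone, none of the 12 lines was called for LBD38, and 5 were called without replicate 1, 5 with the str number as a term and 4 by DESeq2. With replicate 2, 3 or 4 left out the log2 differences were 0.445, 0.431 and 0.434 in SALK_012253, 0.386, 0.448 and 0.494 in SALK_070847C and 0.313, 0.345 and 0.327 in GABI_699B09. Col replicate 1 at 1 mM had 34.7 CPM and stood apart from the other 3 Col libraries. SALK_085964C was not called for LBD38, at 0.39 ± 0.11 (SE, edgeR unadjusted p of 0.000828, adjusted p of 0.0986). That difference was larger than in GABI_699B09, where the unadjusted p was 0.00223. The adjustment ran within each line, and 11.6% of the genes were called in GABI_699B09 and 0.27% in SALK_085964C. A call therefore does not rank the lines by their difference.

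The share of all genes tested that were called against Col was 11.6% in GABI_699B09, 0.636% in SALK_012253, 0.605% in SALK_070847C and 1.54% in GABI_513E07. It was 0.178% in GABI_868_E02, 0.132% in SAIL_1207_H04, 0.229% in SALK_015182, 0.356% in SALK_035980, 0.27% in SALK_085964C, 0.122% in SALK_094437C, 0.0509% in SALK_100002 and 0.214% in SALK_146141. The LBD38 difference was above 0 in all 12 lines, between 0.098 in SALK_035980 and 0.46, with an unadjusted p under 0.05 in 7, and the LBD39 difference in all 12, between 0.068 in SALK_146141 and 0.4 in SALK_012253, with an unadjusted p under 0.05 in 4. These comparisons share the 8 Col libraries. LBD37 differences lay between -0.092 and 0.12, with none under 0.05 unadjusted. For LBD37 and LBD39 no line was called by edgeR with groups alone, limma-voom or DESeq2, while with the str number as a term LBD39 was called in 2 lines and LBD37 in 0. With both concentrations averaged, the lowest fitted level against Col was that of LBD37 in SAIL_1207_H04, a ratio of 0.938 (95% interval of the log2 difference -0.257 to 0.0725), which was not called.

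**Figure D3:**
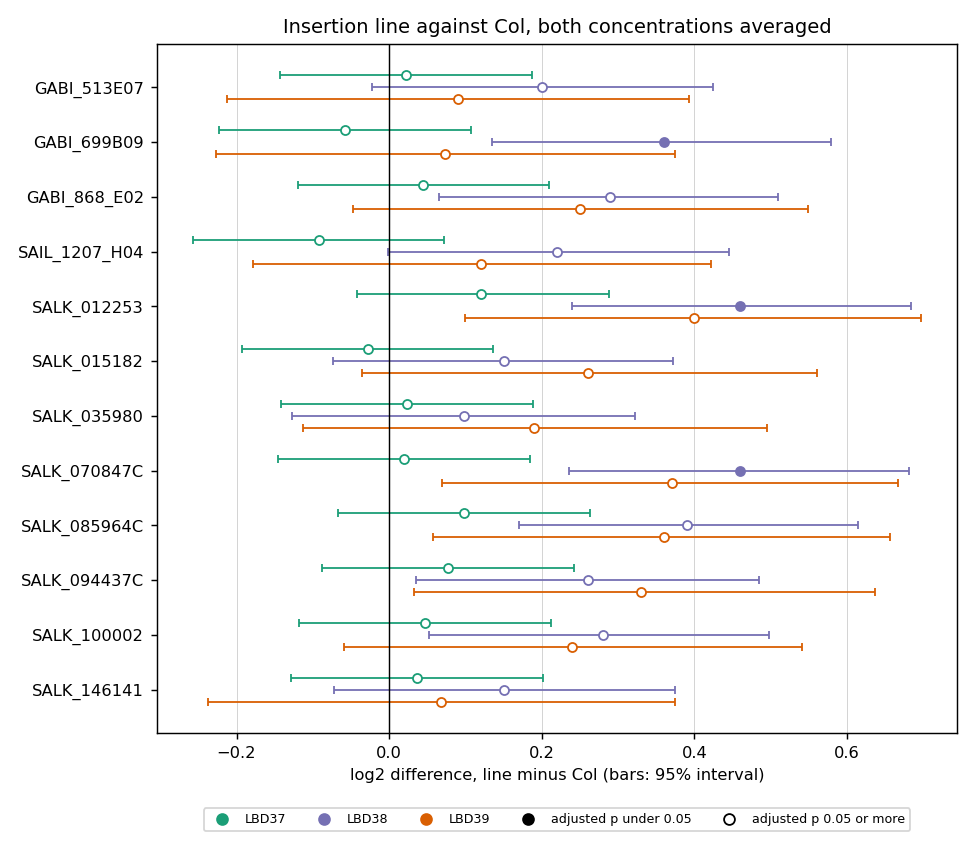
Log2 difference between each insertion line and Col (x axis, both concentrations averaged) for LBD37, LBD38 and LBD39, with 95% intervals from the edgeR fit and filled points for an adjusted p under 0.05. The 3 filled points are LBD38 in GABI_699B09, SALK_012253 and SALK_070847C, and all points of LBD38 and LBD39 lie to the right of 0.

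The levels of LBD38 and LBD39 moved with the replicate number of the labels, and within a concentration the str numbers follow the replicate numbers. At 10 mM, LBD39 averaged 62.6 ± 8.5 CPM in the 13 libraries of replicate 1, 69.6 ± 9.65 in replicate 2, 79.7 ± 12.2 in replicate 3 and 82.2 ± 11.5 in replicate 4 (SD). At 1 mM it averaged 18.4 ± 4.06, 17.5 ± 4.17, 12.8 ± 3.92 and 14.6 ± 2.87 CPM in the same order. The ratio of the concentrations for LBD39 was accordingly 3.4 among the replicate 1 libraries, 3.99 in replicate 2, 6.24 in replicate 3 and 5.64 in replicate 4. For LBD38 it was 1.7, 2.33, 2.75 and 2.44, with replicate 1 the lowest of the 4 at 10 mM in 8 of 13 lines and the highest of the 4 at 1 mM in 10. For LBD37 it was 1.31, 1.28, 1.36 and 1.37. The means were higher at 10 mM at each number, and the ratios of LBD38 and LBD39 differed between numbers by more than 1.5 times. The part of the str number in these differences was not tested.

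**Figure D4:**
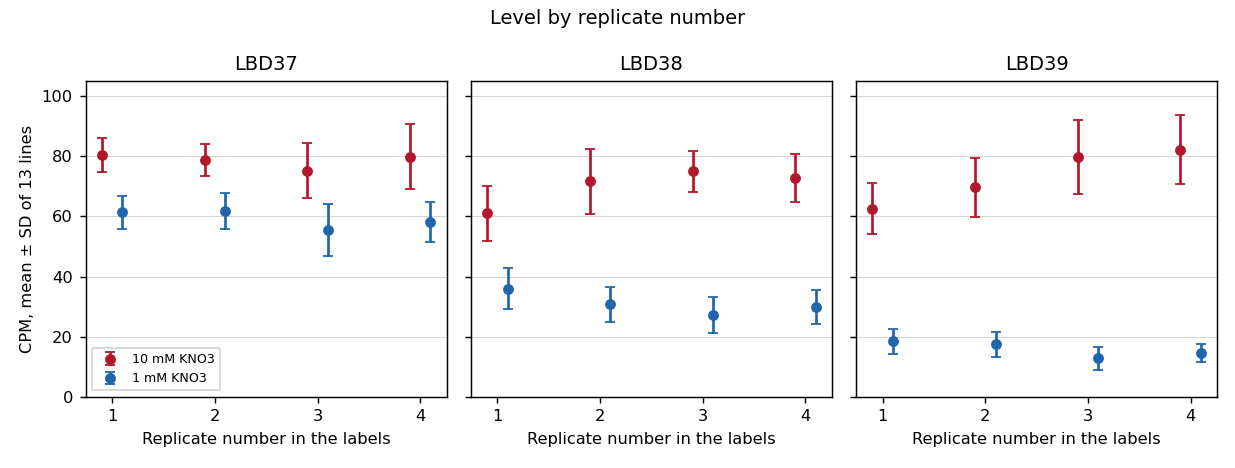
Mean CPM (y axis, with the SD over 13 lines) of LBD37, LBD38 and LBD39 by the replicate number of the labels (x axis), at 10 mM (red) and 1 mM KNO3 (blue). For LBD38 and LBD39 the concentrations are closest in replicate 1, where LBD38 averaged 61 CPM at 10 mM and 36 CPM at 1 mM.

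Within the groups, LBD38 and LBD39 varied together with both runs summed, but not at 1 mM in run 1 alone (Pearson's r -0.0327). Deviations of their log2 CPM from the group mean had a Pearson's r of 0.677 at 10 mM (Spearman's rho 0.664, n = 52 libraries, permutation within groups, adjusted p of 6e-05 for r and 4e-05 for rho over 6 correlations). At 1 mM r was 0.69 (rho 0.705, adjusted p of 6e-05 and 3e-05). Without the 2 libraries farthest from the median of LBD38, r was 0.635 at 10 mM and 0.695 at 1 mM, and with the str number removed it was 0.479 and 0.586 (adjusted p of 0.00906 and 0.00057). At 1 mM, LBD37 deviated together with LBD38 (r 0.546, rho 0.542, adjusted p of 0.00255 and 0.0016), a call lost without replicate 3 (r 0.405, adjusted p of 0.12) and without replicate 4 (0.494, 0.0666), and with LBD39 (r 0.625, rho 0.674, adjusted p of 8e-05 and 3e-05). Leaving out the 2 farthest libraries gave 0.495 and 0.635, and removing the str number gave 0.61 and 0.524. At 10 mM the correlations of LBD37 were not called: r was 0.207 with LBD38 (rho 0.211, adjusted p of 0.188 for both) and 0.208 with LBD39 (rho 0.144, adjusted p of 0.188 and 0.354), and 0.1 and 0.0589 without the 2 farthest libraries. With the str number removed, the r of LBD37 with LBD38 at 10 mM was 0.398 (adjusted p of 0.0158). Without replicate 1 both were called, with an r of 0.561 for LBD38 (adjusted p of 0.0037) and 0.432 for LBD39 (adjusted p of 0.0134).

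These correlations were not alike in the sequencing runs. In run 1 alone, at 1 mM, r was -0.0327 between LBD38 and LBD39 and -0.172 between LBD37 and LBD39 (adjusted p of 0.888 and 0.613), against 0.731 and 0.582 in run 2 alone. The LBD39 counts behind the 1 mM values of run 1 were 10 to 113 per library (median 53), and those of run 2 were 20 to 174 (median 76.5). Across the 52 libraries of a concentration, the deviations of a member in run 1 correlated with those in run 2 at 0.52 at 10 mM and 0.441 at 1 mM for LBD39, at 0.248 and 0.0962 for LBD38 and at 0.255 and 0.123 for LBD37, given as a description. Between LBD37 and LBD38 at 1 mM, r was 0.584 in run 1 and 0.602 in run 2.

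Beside the members, class II holds LBD40, LBD41 and LBD42. LBD41 is known as a gene of the low oxygen response. It was at 5.37 ± 1.65 CPM at 10 mM and 6.9 ± 1.87 CPM at 1 mM (SD, n = 52 each), and fell by 0.38 on the log2 scale (edgeR adjusted p of 1.4e-05), a call lost without replicate 1 (-0.18, adjusted p of 0.057). LBD40 had 49 counts in all 10 mM libraries together and 123 in the 1 mM libraries, and LBD42 had 0 and 1, so both stayed below the filter. Of 20 other LBD genes listed, 15 were tested, 5 rose, 1 fell and 9 were not called, with a median log2 change of 0.12, against 0.0177 over all genes tested. Over all genes tested 34.1% were called higher and 64.5% in either direction, and the share of this list that rose was near the former. The counts of the lists below are to be read against the same shares. LBD3 was at 3.51 ± 1.39 CPM at 10 mM and 1.84 ± 1.01 CPM at 1 mM (log2 change 0.92). LBD31 was at 0.778 ± 0.384 and 0.419 ± 0.248 CPM (0.84), a call lost with the str number as a term (0.702, adjusted p of 0.183). LBD4, a gene of the cambium, changed by 0.43 and LBD30, which acts in xylem, by 0.34 (adjusted p of 0.000269 and 0.000131), and within the mixed str numbers neither was called, at log2 changes of 0.395 and 0.346 (adjusted p of 0.28 and 0.136).

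The members act beside other nitrate-responsive repressors, the BT genes for BTB domain proteins and the HRS1 and HHO genes. Of these 12 genes, all tested, 9 rose, none fell and 3 were not called (median log2 change 0.63). BT2, which lowers high-affinity nitrate transporter expression, was at 185 ± 49.5 CPM at 10 mM and 9.26 ± 3.34 CPM at 1 mM (log2 change 4.33 ± 0.07 SE). BT1 was at 146 ± 37.2 and 18.8 ± 5.87 CPM (2.98). HRS1, which links nitrate to the phosphate starvation response, was at 70 ± 11.3 and 26.9 ± 4.16 CPM (1.38), and HHO5 was at 16 ± 2.38 and 9.17 ± 2.05 CPM (0.81). LBD39 changed less than BT1 and BT2 and more than HRS1.

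Of 21 regulators known to act upstream of the nitrate response, 20 were tested, 4 rose, 13 fell and 3 were not called (median log2 change -0.27). The 4 with the largest changes were NLP genes, which code for activators of the response, and all fell. NLP3 was at 0.891 ± 0.44 CPM at 10 mM and 11.5 ± 2.19 CPM at 1 mM (log2 change -3.70), NLP8 at 3.66 ± 1.49 and 20.9 ± 6.29 CPM (-2.49), and NLP2 at 19 ± 3.08 and 53.9 ± 11 CPM (-1.50). NLP9 had 10 counts in all 10 mM libraries together and 459 in the 1 mM libraries (-5.01).

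Genes of nitrate uptake and reduction are among those that LBD37, LBD38 and LBD39 are known to repress. Of 16 in the files, all tested, 7 rose, 8 fell and 1 was not called (median log2 change -0.16). The high-affinity transporter genes NRT2.2, NRT2.4 and NRT2.5 fell. NRT2.2 was at 0.681 ± 0.428 CPM at 10 mM and 18.7 ± 4.66 CPM at 1 mM (log2 change -4.80), NRT2.4 at 0.408 ± 0.301 and 12.4 ± 4.13 CPM (-4.98), and NRT2.5 at 0.052 ± 0.0807 and 2.91 ± 1.65 CPM (-5.70). NRT2.6 rose, with 21.6 ± 9.77 CPM at 10 mM and 0.806 ± 0.578 CPM at 1 mM (4.76). The nitrate reductase genes, chosen here for their role after their values were seen, changed in opposite directions: NIA1 was at 487 CPM at 10 mM and 209 CPM at 1 mM (1.22), and NIA2 at 86.3 and 352 CPM (-2.03).

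Of 10 anthocyanin regulators, 5 were tested, 2 rose, none fell and 3 were not called (median log2 change 0.0921). PAP1 and PAP2, activators that the members are known to repress, and MYB113, MYB114 and TT8 were below the filter: PAP1 had 1 count in the 52 libraries at 10 mM and none at 1 mM, and MYB114 had none in any library. Their response could not be measured at this depth. MYBL2, a repressor of anthocyanin synthesis, rose, with 14.3 ± 3.47 CPM at 10 mM and 1.32 ± 0.563 CPM at 1 mM (log2 change 3.45). TTG1, a partner of the activators, changed by 0.16, a call lost with the str number as a term (0.0753, adjusted p of 0.455). Of 12 anthocyanin synthesis genes, 6 were tested, none rose, 3 fell and 3 were not called (median log2 change -0.24). CHI, for chalcone isomerase, fell by 0.47 on the log2 scale, F3PH, for flavonoid 3′-hydroxylase, by 0.40 and UGT78D2, for a flavonoid glucosyltransferase, by 0.29. Without replicate 1 CHI was not called (-0.19, adjusted p of 0.134) and F3PH turned its direction (0.0787, adjusted p of 0.579), and neither was called with the str number as a term, at -0.515 and -0.416 (adjusted p of 0.0518 and 0.14). DFR and LDOX, the late steps, were below the filter.

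**Figure D5:**
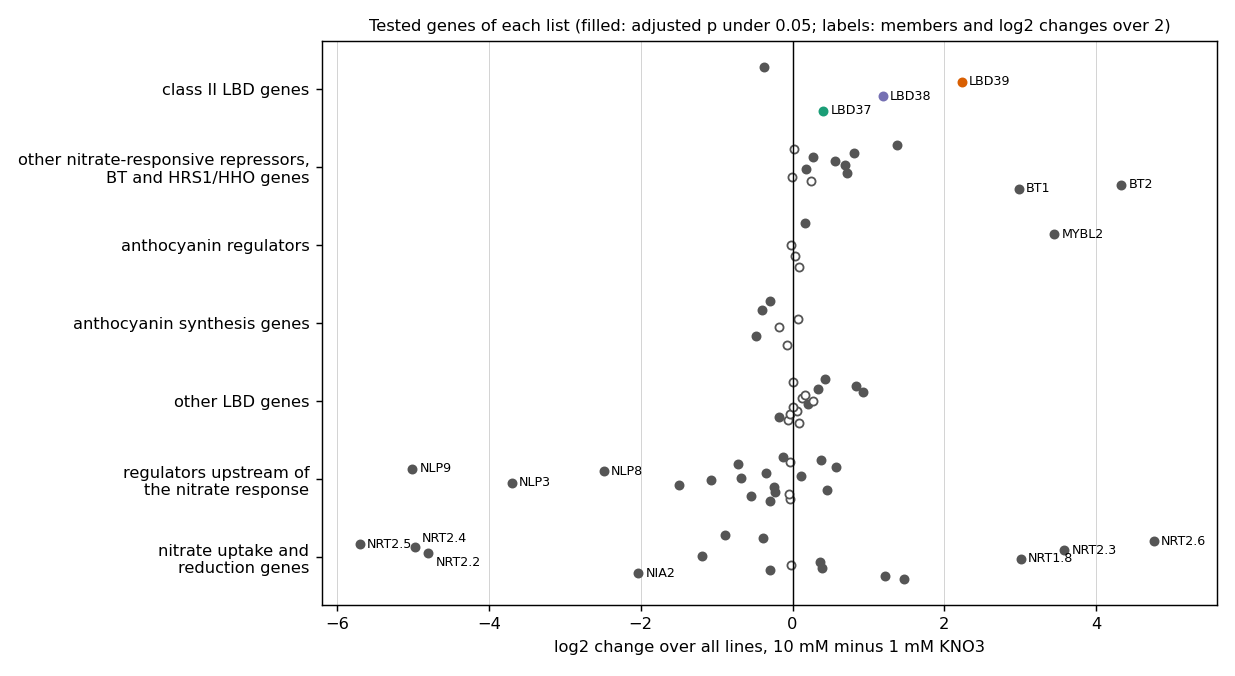
Log2 change over all 13 lines at 10 mM against 1 mM KNO3 (x axis) of each tested gene of 7 lists (rows), filled where the adjusted p was under 0.05, with the members in colour. LBD37, LBD38 and LBD39 lie at 0.41, 1.19 and 2.23, BT2 at 4.33, MYBL2 at 3.45 and NRT2.2, NRT2.4, NRT2.5, NLP3, NLP8 and NLP9 below -2.

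Over all libraries, the genes whose log2 CPM was most like that of LBD39 were BT1 (Pearson's r 0.970), BT2 (0.970), AT4G29905 (0.967), ATCTH (0.967) and AT2G22122 (0.966). For LBD38 they were AT1G10682 (0.947), BT1 (0.945), AT1G80380 (0.943), AT4G07820 (0.942) and MEE59 (0.935), and LBD39 itself was closer than any of these, at 0.957. For LBD37 they were AT5G03230 (0.883), BXL2 (0.864), TIM23-1 (0.863), RAV1 (0.861) and FRA8 (0.854), with LBD39 at 0.838 and LBD38 at 0.809. This measure includes the difference between the concentrations. With the group means removed, the likest genes were AT3G11280 (0.764) and BZO2H3 (0.763), which codes for a bZIP factor, for LBD39, followed by AT1G52070 (0.760), ALDH2C4 (0.738) and AT4G05070 (0.738). For LBD38 they were AT3G11280 (0.750), AT5G10070 (0.750), AT3G27030 (0.749), AT3G01190 (0.746) and BZO2H3 (0.736). AT3G11280 and BZO2H3 were in both lists. For LBD37 they were TET3 (0.699), ZFP6 (0.696), UPL4 (0.695), AT5G03700 (0.691) and OASB (0.688), none of them in the lists of the others. By this measure LBD39 was 23rd for LBD38 (0.684), and for LBD37 LBD39 was 428th (0.481) and LBD38 851st (0.418). The libraries share str numbers and runs, and these values are a description.

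The nearest loci in the genome changed in both directions. Beside LBD39, AT4G37530 fell, with 43.4 ± 9.13 CPM at 10 mM and 86.4 ± 14.9 CPM at 1 mM (log2 change -0.997), AT4G37520 fell (-0.67), and AT4G37550, which lies 2184 bases away, rose (1.77). Beside LBD38, AT3G49930 rose (0.44) and AT3G49960 fell (-0.89), and AT3G49950 and AT3G49925 had no count in any library. Beside LBD37, AT5G67430 fell, with 7.41 ± 1.5 CPM at 10 mM and 17.8 ± 4.13 CPM at 1 mM (-1.26), while AT5G67410 (0.19) and NPY3 (0.10) were not called. AT5G67411 and AT4G37560 were below the filter.

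Markers of other tissues and cell types were also compared between the concentrations. Of all genes tested, 64.5% were called in either direction and 34.1% higher at 10 mM. Markers of root cap and of dividing cells were called about as often. All 17 tested of 20 markers of photosynthetic tissue were higher at 10 mM, with a summed level of 154 to 577 CPM at 10 mM and 71.7 to 285 CPM at 1 mM. All 8 markers of xylem rose (529 to 837 CPM at 10 mM, 413 to 696 CPM at 1 mM), as did all 7 of endodermis (410 to 645 and 329 to 540 CPM) and 5 of 6 of phloem, 1 of which fell (135 to 225 and 127 to 207 CPM). Of 7 root hair markers 6 fell and 1 rose (177 to 347 and 219 to 488 CPM). Of 3 root cap markers 2 rose and 1 was not called (16.7 to 45.4 and 16.2 to 41.5 CPM), and of 6 markers of dividing cells 3 rose, 1 fell and 2 were not called (57 to 83.2 and 55.3 to 89.3 CPM). No marker was at 0 in all libraries. Their part in the members' change was not tested.

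A library held between 3981966 and 13695037 counts with both runs summed. Behind the members' values lay 348 to 1089 counts of LBD37 per library at 10 mM and 154 to 829 at 1 mM, 267 to 1272 of LBD38 at 10 mM and 88 to 442 at 1 mM, and 265 to 1138 of LBD39 at 10 mM and 30 to 276 at 1 mM. LBD39 at 1 mM had the lowest counts and the largest relative spread, with a coefficient of variation of 27.3% over libraries, against 17.7% at 10 mM. This spread also holds the differences among lines and replicate numbers. The column headers of 10 mM replicate 3 of SALK_085964C and SALK_035980 carry each other's line name. The labels were followed. Leaving the pair out gave a log2 change over all lines of 2.21 for LBD39, 1.18 for LBD38 and 0.405 for LBD37. LBD37 was then called higher in 11 lines, against 12. Exchanging the pair gave 2.23, 1.19 and 0.408, but it moves libraries only between lines at 10 mM. The average over all lines can therefore hardly change with it. The values of the lines of the pair, among them the widest LBD38 change in SALK_035980, rest on the labels.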

How the data were processed

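Root RNA was sequenced by BRAD-seq DGE, per the labels' protocols, a method whose reads fall close to 3′ ends. The deposited values are raw read counts per locus, 1 file per library and run. The submitters' processing notes name HTSeq, Bowtie, SAMtools, limma and FastQC and the build TAIR10. Versions, roles and the strand setting are not given in the sources used here. Both runs were summed per library, and 279 organelle loci, which run 2 lists at 0, were left out of the 33602. RefSeq TAIR10.1 gave names and sequences and matched 32835 of 33323 nuclear loci. In R 4.3.3, edgeR 4.0.16 (low-count filter of filterByExpr at 10 counts, TMM scaling, quasi-likelihood fit with 26 groups) tested 19664 genes with Benjamini-Hochberg adjustment and a threshold of 0.05. Between 156 pairs of libraries of the same group chi-square divided by its degrees of freedom was never under 4.48, so none of these pairs were copies. Pairs from different groups were not checked in this way. Library totals were between 3981966 and 13695037, with a median of 8330750.5. Counts carry no molecular identifiers, so counting error understates the spread. Intervals of log2 differences are 95% normal intervals from the SE. Ratios used counts plus 0.5. The fit was also run on simulated counts with the same spread for all genes and no effect of line, replicate or str number. That run does not test the fit under such effects. Tried alternatives were DESeq2 1.42.0, limma-voom 3.58.1, RLE factors, no filter, a replicate block, the str number of the titles as a term, its mixed values alone, single runs, adjustment over genes and lines together, the exchanged pair and leaving out replicates.

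The named genes are the members, of each list the 4 called genes with the largest change, all class II genes, the 5 genes most correlated with each member and the 2 nearest loci on each side. The members and lists were chosen with earlier results of these data known.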

Additional observations from a re-analysis of the deposited data

Results flagged for a closer look

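In 78 groups of 4 libraries (3 genes in 26 groups), 2 had a library apart from the other 3 by the gap to its nearest neighbour over the range (Dixon's ratio). Chance flags about 1 in 20 groups. LBD38 in Col at 1 mM was 34.7 CPM in replicate 1, against 18.5 to 21.2 CPM in the other 3 libraries (ratio 0.835). LBD39 in SALK_012253 at 10 mM was 69.5 CPM in replicate 3, against 80.5 to 82 CPM in the others (ratio 0.877).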

How the results depend on the processing

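The log2 change over all lines stayed called for LBD37, LBD38 and LBD39 under every alternative run, between 0.361 and 0.436 for LBD37, 1.09 and 1.34 for LBD38 and 2.04 and 2.38 for LBD39, and so did the 3 ratio changes. The genes called over all lines were 12675, against 7563 with the str number as a term and 6568 in its mixed values alone. LBD37 was called in 12 lines, in 4 with run 1, 6 with run 2, 7 from the 8 libraries of each line, and 4 to 10 without a replicate. LBD38 was called against Col in 3 lines, in 5 with the str number as a term, in 0 with run 1 or run 2, and in 0 to 5 without a replicate, and LBD39 in 2 with the str number as a term. The LBD38 difference among lines (adjusted p of 0.0181) was 0.282 with run 1, 0.27 with run 2, 0.126 among insertion lines and 0.000993 to 0.455 without a replicate. With the str number as a term it was 6.7e-06, and that of LBD39 was 0.00926. At 10 mM the r of LBD37 with LBD38 was 0.398 with the str number removed and -0.0281 to 0.561 without a replicate, and that with LBD39 was 0.0501 to 0.432. At 1 mM the r of LBD37 with LBD38 was 0.405 to 0.689 without a replicate, and in run 1 that of LBD37 with LBD39 was -0.172 and that of LBD38 with LBD39 -0.0327. F3PH was -0.747 to 0.0787 without a replicate, and LBD37 in SALK_070847C was -0.126 with run 1. The cause was not tested. With the replicate number as a block the changes were 0.408, 1.19 and 2.23 for LBD37, LBD38 and LBD39. There 12877 genes were called, and the block changed no call of these results. It gives each number the same shift at both concentrations. Replicate 1 of LBD38 had the lowest mean at 10 mM (61 CPM, against 71.6 to 75) and the highest at 1 mM (36, against 27.3 to 30.7). Such opposite shifts cannot be taken up by this block, and a block within each concentration was not fitted. The numbers were not taken as pairs: across the concentrations of a line 1 of 52 same-numbered pairs correlated above 0.1, and 5 of 52 libraries correlated best with their own number. Between lines and Col it was 58 of 96 pairs and 56 of 96 libraries.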
